A study of Saccharomyces cerevisiae with 31 samples.

Results

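Wild-type yeast that had been sorted by size in a centrifuge and wild-type yeast that had not were compared gene by gene, over 4106 of the 6713 genes in the authors' deposited table. A gene entered if it was scored in both series and had a median read count of at least 10 in the deposited read-count column. Of the 6122 genes scored in both, 2016 were under that count, and 162 of the 6713 were scored in neither. The rule for entry used no difference between the series. It and the gene lists below were chosen with earlier results of these data known.

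RNA of budding yeast (Saccharomyces cerevisiae) was sequenced in 31 libraries, of which 12 came from wild-type (WT) cells and 19 from Cdc28-as cells, whose cyclin-dependent kinase can be blocked by the compound 1NM-PP1. Both WT groups had the genotype WT, grew in YEP with ethanol as carbon source and received 1NM-PP1, and a known amount of Candida albicans BWP17 cells was added to each before hot acid phenol extraction of total RNA. The elutriated WT cells (6 libraries, at 2, 3, 4, 5, 6 and 7 h) were elutriated before the inhibitor was added. The unelutriated WT cells (6 libraries, at 0, 1, 2, 3, 5 and 6 h) received the inhibitor alone. The labels name no strain background for the WT cells, no cell size and no size fraction, and each series is 1 culture followed over time as far as the labels tell. The times do not match, so the elutriated series lacks the first hours that the unelutriated series covers.

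Elutriation separates cells by how fast they sediment, and the smallest fraction of a yeast culture is made mostly of newborn daughters in G1. As such daughters grow they pass Start, the commitment step at which Cdc28 with its G1 cyclins switches on the G1/S genes through the factors SBF and MBF, and the population then moves through the cycle partly in step. 1NM-PP1 is a bulky compound made to fit kinases with an enlarged pocket, which WT Cdc28 lacks, so these series are controls in which cells can go on growing and dividing.

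The table holds 1 score per gene and series and no value per library, so levels in single libraries, replicate error and p-values could not be given, and all differences below are descriptions of these 2 series. For genes detected in the first library the score behaves as the slope per hour of the level relative to that library. A gene detected in the first library alone would score -0.143 per h in the elutriated and -0.106 per h in the unelutriated series on this reading, and 38 and 25 of the 4106 genes hold exactly those values. These are not the lowest scores, since 387 genes (9.43%) in the elutriated and 986 genes (24%) in the unelutriated series scored below them. A level that falls steadily can have a steeper slope than one that is gone after the first library. On this reading a level that stays at or under its first value cannot reach the lowest scores, -1.59 and -0.983 per h. Such scores would need a level that rose before it fell. A low score therefore does not say how much RNA was lost. The labels give no check of the elutriation itself, and the CDC28 allele cannot be read from a score.

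The scores of the series differed widely in size. In elutriated WT cells they ran from -1.59 to 378 per h with a median of 0.223 and quartiles of -0.0130 and 1.73. In unelutriated WT cells they ran from -0.983 to 2.80 per h with a median of -0.0440 and quartiles of -0.104 and 0.0332. The distance between the quartiles was therefore 12.6 times larger in the elutriated series, and 73.4% of the genes scored above 0 there against 33.8% in the unelutriated series. Over 10 per h lay 374 genes in the elutriated series and 0 in the unelutriated series. A score of 10 per h would mean a level that gains 10 times that of the first library in each hour. A low level in the first library raises a score, and levels by library were not used here, so their part in these high scores was not tested.

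Scores also went with read count, more so in the elutriated series. Across the 4106 genes Spearman's rho between score and read count was 0.337 in elutriated and 0.131 in unelutriated WT cells. In the 10% of genes with the fewest reads (median 11.5) the median scores were 0.0748 and -0.0587 per h. In the 10% with the most reads (median 196) they were 4.28 and 0.0100 per h. The read count itself came from experiment 1 of the Cdc28-as cells and not from the WT libraries. At the read minimum, the 69 genes with 10 reads had median scores of 0.144 and -0.0624 per h, and the 65 genes just below it, with 9.5 reads, had 0.0950 and -0.0616 per h.

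**Figure D1:**
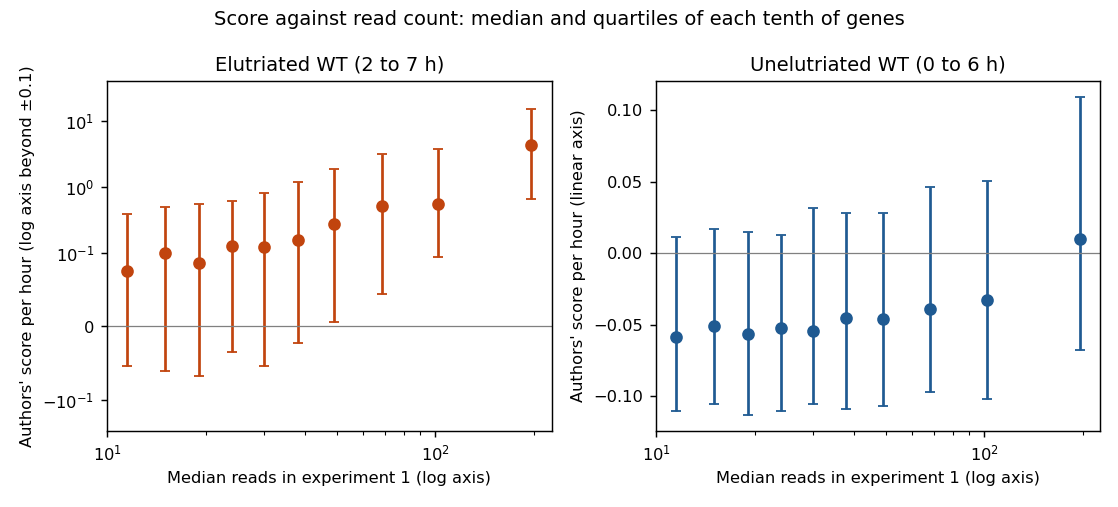
Score per hour against median read count in experiment 1 of the Cdc28-as cells, for the 4106 genes in 10 groups of equal size by reads, in elutriated WT (left, log axis beyond 0.1 per h) and unelutriated WT (right, linear axis). Points are medians and bars run from the lower to the upper quartile; the elutriated medians climb from 0.0748 per h in the group with the fewest reads to 4.28 per h in that with the most.

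For this reason each score was turned into a percentile among the genes of like read count, in 20 bins of equal size, and the series were compared by the shift, the elutriated minus the unelutriated percentile in points. Ranks take out the median gene and the spread of each series. The 2 rankings had little in common, with a Spearman's rho of 0.140 over the 4106 genes, which share their read-count bins. The shift was at least 50 points up in the elutriated series for 445 genes (10.8% of the genes compared) and at least 50 points down for 386 genes (9.4%). Rankings with so little in common put many genes past 50 points either way by themselves. A large shift alone therefore does not mark a gene as different between the series. A percentile of at least 80 in both series was held by 231 genes (5.63%) and one of at most 20 in both by 235 genes (5.72%). Any upward shift was seen for 1997 genes (48.6%) and any downward shift for 2078 genes (50.6%), and the median shift was -0.9 points with quartiles of -25.7 and 24.9.

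**Figure D2:**
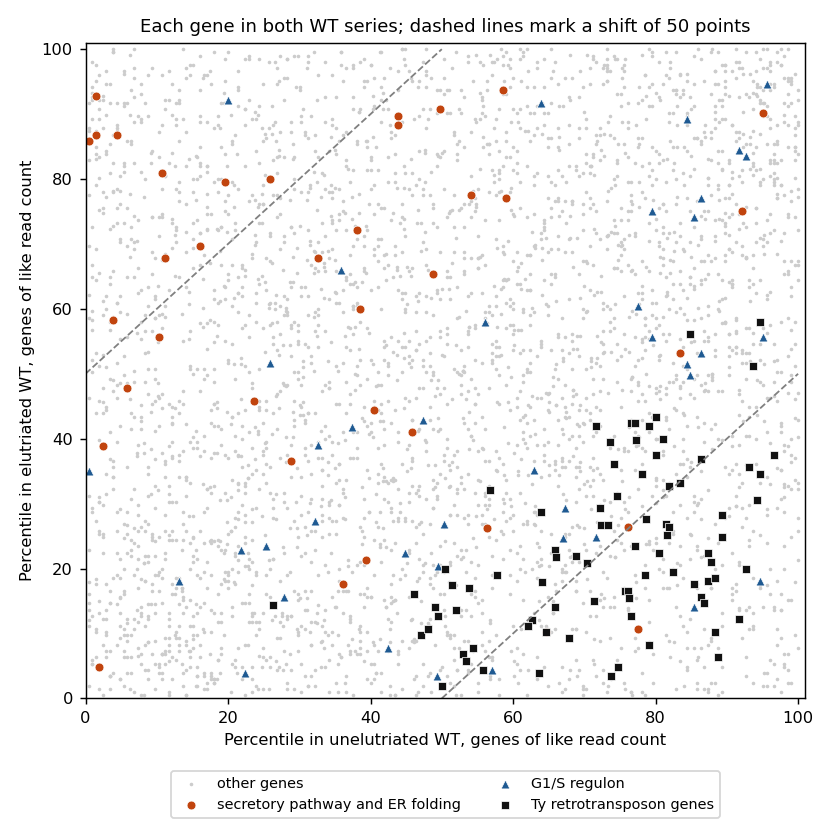
Percentile of each gene among genes of like read count in unelutriated WT (horizontal) and elutriated WT (vertical), 4106 genes. Colours mark the secretory pathway, G1/S and Ty genes; Ty genes lie at the lower right, with median percentiles of 76.2 in the unelutriated and 19.9 in the elutriated series, and dashed lines mark a shift of 50 points.

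Genes were then grouped by function. Lists of proteins that build and fill the secretory pathway, the cell wall and the sterol membrane, together with chaperones, phosphate genes and glycolytic enzymes, ranked higher in elutriated than in unelutriated WT cells. Lists of G1/S genes, of purine and pyrimidine synthesis and of Ty retrotransposons ranked lower. Cytosolic ribosomal proteins, translation factors and TCA cycle enzymes ranked in the upper part of both series.

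**Figure D3:**
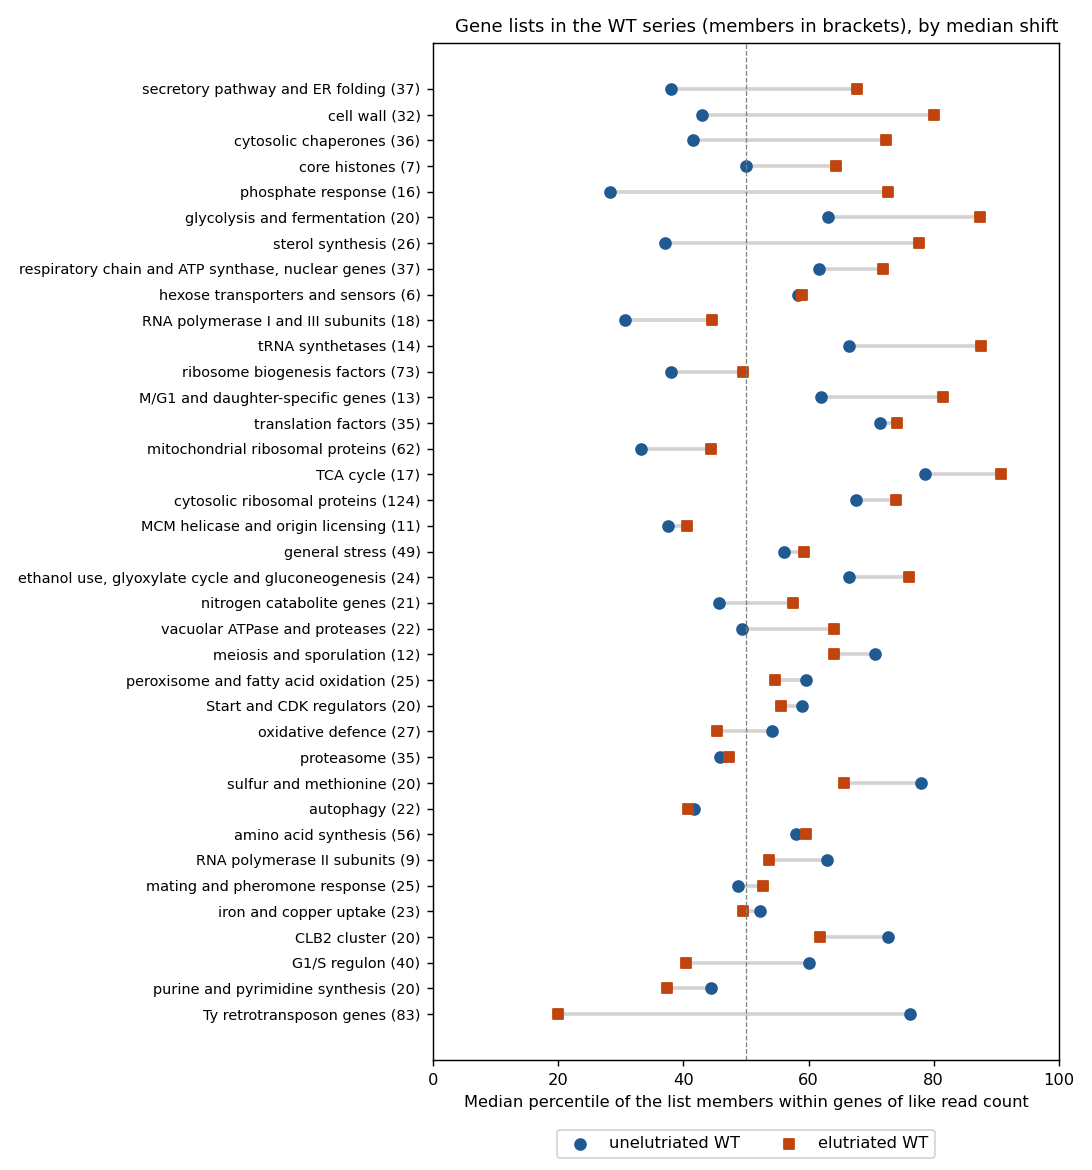
Median percentile of the members of each gene list in unelutriated WT (circles) and elutriated WT (squares), ordered by median shift, with the number of members in brackets. The dashed line is the 50th percentile, and the grey bar between the markers is widest for the Ty genes, where the elutriated median is the lower.

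The secretory pathway and protein folding in the endoplasmic reticulum (ER) had the highest median shift of the lists. Of its 37 members 27 ranked higher in elutriated WT cells, against 48.6% of all genes. The median percentile was 67.8 against 38.0 and the median shift was 34.1 points. By 50 points or more 10 members were shifted up and 2 down (10.8% and 9.4% of all genes). VRG4, which carries GDP-mannose into the Golgi, scored 2.64 per h in elutriated and -0.226 per h in unelutriated WT cells, percentiles of 92.7 and 1.46. PMT4, which starts O-mannosylation in the ER, scored 1.21 and -0.385 per h, and OST1, a subunit of the oligosaccharyltransferase, 3.21 and -0.347 per h. These 3 genes stood above the 80th percentile of the elutriated series and at the bottom of the unelutriated one. VRG4 and PMT4 had few reads in Cdc28-as experiment 1, 11 and 13.5, and their depth in the WT libraries is unknown.

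Enzymes of oxidative folding and ER chaperones also included genes that ranked higher in elutriated cells. ERO1, which oxidises protein disulphide isomerase, scored 1.82 and -0.227 per h, and PDI1, that isomerase, 4.08 and -0.115 per h. LHS1 and SCJ1, an ER Hsp110-type and an ER Hsp40 chaperone, were shifted up by 56.6 and 54.1 points. Of the 7 ER folding members 5 ranked higher, 2 ranked lower and 4 were shifted up by 50 points or more. Over all genes 48.6% ranked higher and 10.8% were shifted up. All 3 COPII coat members (SEC23, SEC24 and SAR1, which bud vesicles from the ER) and 4 of 5 COPI coat members, which return vesicles to it, ranked higher. The oligosaccharyltransferase was divided, with 5 of 8 higher, since OST3 scored -0.153 in elutriated and 0.0269 per h in unelutriated cells and was shifted by -66.8 points. The translocon and signal recognition particle were divided too, with 5 of 9 higher, 4 lower and a median shift of 3.9 points. SRP54, the GTPase of the signal recognition particle, was the other member of the list shifted down past 50 points, by -54.4 at 10 reads. These groupings by role are small and were made after the values had been seen.

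Cell wall genes showed the same direction. Of 32 members 22 ranked higher in elutriated WT cells, against 48.6% of all genes. Median percentiles were 80.0 and 42.9, and 10 members were shifted up against 1 down (10.8% and 9.4% of all genes). FKS1, a catalytic subunit of glucan synthase, scored 16.6 and -0.129 per h. CHS3, which makes most of the chitin, scored 8.63 and -0.119 per h at 13 reads. KRE9, needed for beta-1,6-glucan, was shifted up by 82.4 points. GAS1 and GAS5, which elongate glucan chains, reached 118 and 163 per h in elutriated cells against -0.0493 and -0.0210 per h. Among mannoproteins of the wall, CCW12 scored 29.99 and -0.0407 per h. PIR3, a wall protein bound through alkali-sensitive links, went the other way with -0.534 and -0.0265 per h, and CRH1, a chitin transglycosylase, was at the 55.6 percentile in elutriated and 95.1 in unelutriated cells.

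Cytosolic and mitochondrial chaperones included no member shifted down by 50 points. Over all genes 9.4% were, a share that comes to only a few members in a list of this size. Of 36 members 26 ranked higher in elutriated WT cells and 7 were shifted up, at median percentiles of 72.4 and 41.5, where 48.6% of all genes ranked higher and 10.8% were shifted up. All 8 Hsp70 and Hsp110 genes were higher, with SSA4, a stress-induced Hsp70, at 4.45 and -0.112 per h and SSE2, an Hsp110, at 27.6 and -0.106 per h. HSP60, the mitochondrial chaperonin, scored 25.4 and -0.121 per h, and all 6 members of the CCT chaperonin, which folds actin and tubulin, ranked higher. The Hsp90 system was divided, with 5 of 9 members higher and 3 lower. The Hsp90 gene HSC82 ranked at 69.8 in elutriated and 62.9 in unelutriated cells, and its partner CPR6 was shifted up by 51.2 points. HSP82, the other Hsp90 gene, ranked at 21.5 in elutriated and 61.5 in unelutriated cells. SIS1, an Hsp40 partner of Hsp70, was likewise lower in the elutriated series, at percentiles of 43.7 and 84.0.

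Of the 16 phosphate response genes 12 ranked higher in elutriated WT cells, 6 were shifted up by 50 points or more and 0 down, against 48.6%, 10.8% and 9.4% of all genes. At this list size a count of 0 down lies near that share. All 5 phosphate transporters and all 4 members of the VTC complex, which makes polyphosphate at the vacuole, were among the 12. PHO89, a sodium-coupled phosphate transporter, scored 31.8 and -0.104 per h, and PHO87, a low-affinity transporter, 1.39 and -0.234 per h. VTC4, the polymerase of the VTC complex, scored 6.61 and -0.205 per h, and VTC1 0.0505 and -0.124 per h. PHO84, the high-affinity transporter, was above the median gene of both series, with percentiles of 77.1 and 70.7. The Pho4 site CACGTG, searched on both strands after the values had been seen, lies in 3.07% of the 4066 promoters and in 5 of these 16. The promoter windows below run from 250 bases before to 50 after the annotated start of the coding sequence in RefSeq's R64, and are shown because they carry that site (in capitals) in genes with large and small shifts: PHO87 with a shift of 81.5 points (chrIII:197136-197435, minus strand), VTC4 with 78.2 (chrX:413350-413649, minus strand) and VTC1 with 5.37 (chrV:302556-302855, plus strand).
PHO87: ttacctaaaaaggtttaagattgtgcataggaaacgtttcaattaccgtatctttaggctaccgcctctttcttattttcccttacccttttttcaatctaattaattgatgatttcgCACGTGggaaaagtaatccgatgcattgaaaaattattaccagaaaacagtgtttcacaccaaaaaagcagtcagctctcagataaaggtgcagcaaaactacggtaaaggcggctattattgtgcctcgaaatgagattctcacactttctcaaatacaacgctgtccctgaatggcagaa
VTC4: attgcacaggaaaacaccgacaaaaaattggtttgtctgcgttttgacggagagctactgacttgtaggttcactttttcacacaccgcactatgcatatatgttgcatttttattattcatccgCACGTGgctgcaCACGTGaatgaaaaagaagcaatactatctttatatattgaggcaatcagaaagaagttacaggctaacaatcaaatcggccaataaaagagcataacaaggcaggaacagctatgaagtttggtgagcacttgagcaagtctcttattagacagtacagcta
VTC1: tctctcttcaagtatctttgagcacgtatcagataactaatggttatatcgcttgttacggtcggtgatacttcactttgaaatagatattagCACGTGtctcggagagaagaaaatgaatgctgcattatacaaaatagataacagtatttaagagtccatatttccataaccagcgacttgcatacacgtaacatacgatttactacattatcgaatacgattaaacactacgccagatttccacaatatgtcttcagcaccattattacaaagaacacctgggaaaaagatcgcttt
The 5 phosphate genes with the site had a median shift of 47.8 points and the 11 without it 6.3, while over all promoters with CACGTG the median shift was -0.5 points, the value of all promoters.

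Glycolysis and fermentation genes ranked high in elutriated cells, at a median percentile of 87.3 against 63.2, with 15 of 20 members higher, 5 shifted up and 0 down (48.6%, 10.8% and 9.4% of all genes). HXK1, a hexokinase, scored 6.75 and -0.137 per h. CDC19, the main pyruvate kinase, scored 41.4 and -0.0969 per h, PFK1, a subunit of phosphofructokinase, 15.9 and -0.132 per h, and TDH3, the main glyceraldehyde-3-phosphate dehydrogenase, 27.8 and -0.0699 per h. GPM1, phosphoglycerate mutase, was the exception with the lowest shift, at percentiles of 33.5 and 75.2. The cells grew on ethanol, a carbon source that enters metabolism below glycolysis, and genes of ethanol use and gluconeogenesis stood at 76.1 and 66.5 with a median shift of 3.9 points.

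Sterol synthesis had 18 of 26 members higher in elutriated WT cells and 7 shifted up with 0 down (48.6%, 10.8% and 9.4% of all genes), at median percentiles of 77.7 and 37.0. ERG11, the lanosterol demethylase targeted by azole drugs, scored 76.9 and -0.0863 per h, and ERG5, a desaturase of the late pathway, 9.69 and -0.184 per h. ERG9, squalene synthase, scored 2.25 and -0.294 per h. ERG6 and NCP1, a methyltransferase and the reductase that feeds electrons to ERG11, were lower in elutriated cells, with shifts of -42.0 and -38.0 points. Nuclear genes of the respiratory chain and ATP synthase had 24 of 37 members higher, at 71.8 and 61.7, with 7 shifted up and 2 down (48.6%, 10.8% and 9.4% of all genes).

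**Figure D4:**
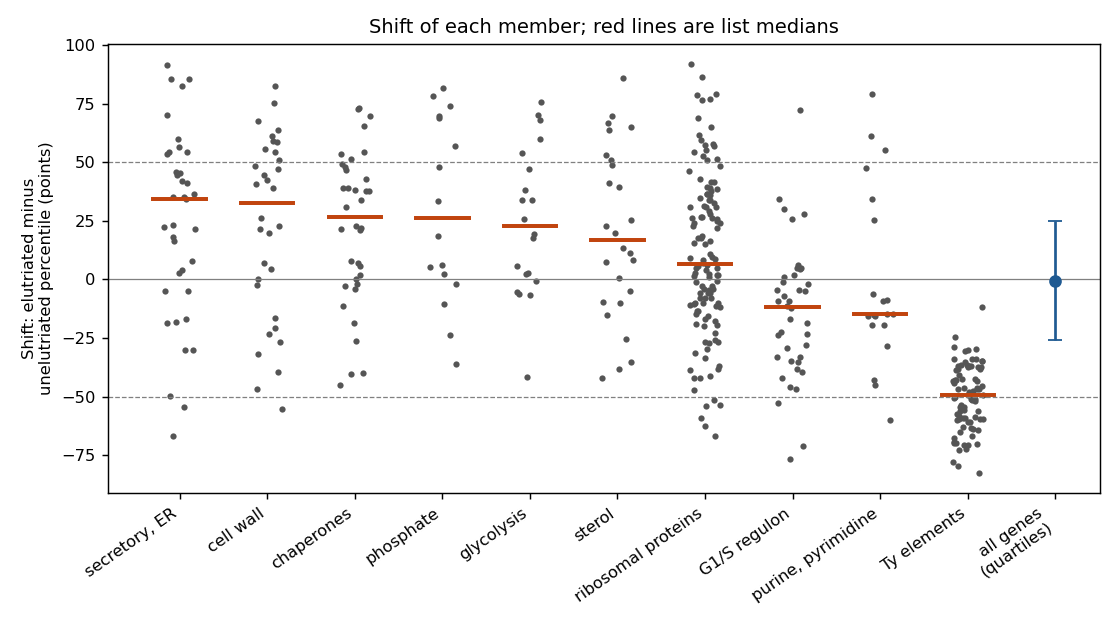
Shift of every member (elutriated minus unelutriated percentile, in points) for 10 lists, with red lines at list medians and dashed lines at 50 points either way. The bar at the right gives the median and quartiles of all 4106 genes, -0.9, -25.7 and 24.9 points; every Ty gene lies below 0 and most other lists straddle it.

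The G1/S regulon, the targets of SBF and MBF, had the lowest median shift of the cell cycle lists. Of its 40 members 29 were lower and 11 higher (50.6% and 48.6% of all genes). Median percentiles were 40.4 in elutriated and 60 in unelutriated cells, with a median shift of -11.7 points. By 50 points or more 1 member was shifted up and 3 down (10.8% and 9.4% of all genes). Most members therefore differed by less than 50 points. Among genes of DNA synthesis and repair, a group formed after the values had been seen, 17 of 20 were lower, with a median shift of -11.7 points as in the whole list, and all 4 cohesin genes were lower too. RFA1, the large subunit of the single-strand binding protein RPA, scored -0.0678 per h in elutriated and 0.229 per h in unelutriated cells, percentiles of 18.05 and 94.6. TOS4, a gene with a forkhead-associated domain, scored -0.143 and 0.0991 per h, and SMC3, a cohesin ATPase, -0.271 and -0.0410 per h. The elutriated score of TOS4 equals, to the digits given, that of a gene seen in the first library alone. MNN1, a Golgi mannosyltransferase, was the 1 member shifted up, at percentiles of 92.2 and 20.

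MBF binds the MCB element ACGCGT, which was searched on both strands in the same 300-base windows and lies in 3.32% of the 4066 promoters and in 20 of these 40. The 20 genes with it had median percentiles of 25.8 and 53.7 and a median shift of -17.8 points (16 lower, 4 higher), and the 20 without it a median shift of -7.1 points (13 lower, 7 higher). Over all 135 promoters with the MCB the median shift was -12.2 points against -0.5 for all promoters. These are 3 of the windows, with the MCB in capitals, chosen because they run from a large downward to an upward shift: RFA1 with -76.6 points (chrI:158570-158869, minus strand), RAD27, the flap endonuclease, with -42.2 (chrXI:225826-226125, minus strand) and CDC21, thymidylate synthase, with 34.5 (chrXV:467540-467839, minus strand).
RFA1: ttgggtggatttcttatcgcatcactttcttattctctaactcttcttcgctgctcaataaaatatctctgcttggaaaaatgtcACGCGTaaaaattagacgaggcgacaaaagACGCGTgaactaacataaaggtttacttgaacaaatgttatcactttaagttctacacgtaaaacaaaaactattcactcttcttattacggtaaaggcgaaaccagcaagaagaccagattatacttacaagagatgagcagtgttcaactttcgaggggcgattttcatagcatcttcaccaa
RAD27: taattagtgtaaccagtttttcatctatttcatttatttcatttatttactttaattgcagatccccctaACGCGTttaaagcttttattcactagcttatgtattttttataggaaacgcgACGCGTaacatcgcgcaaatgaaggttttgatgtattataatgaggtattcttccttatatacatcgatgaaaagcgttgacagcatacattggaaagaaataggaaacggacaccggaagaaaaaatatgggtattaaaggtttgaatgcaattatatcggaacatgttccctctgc
CDC21: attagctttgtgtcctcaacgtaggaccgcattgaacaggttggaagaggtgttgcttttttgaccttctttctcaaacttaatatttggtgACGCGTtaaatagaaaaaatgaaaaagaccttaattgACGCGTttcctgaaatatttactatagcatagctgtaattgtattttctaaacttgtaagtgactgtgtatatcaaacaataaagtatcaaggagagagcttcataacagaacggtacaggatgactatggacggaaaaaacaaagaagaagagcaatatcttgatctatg
All 3 windows hold the element 2 times. CDC21 was below the median gene in both, at percentiles of 34.95 and 0.485. A match is a run of letters and shows no binding. The SBF element CACGAAA, in 4.53% of promoters, went with a median shift of 8.0 points.

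The regulators of Start and of Cdc28 did not move as a block, with 10 of 20 higher and 10 lower in elutriated WT cells and a median shift of 0.7 points. CDC28 itself scored 3.01 in elutriated and 0.00225 per h in unelutriated cells, percentiles of 89.8 and 73.7. The G1 cyclin CLN3, which acts first at Start, scored 2.04 and 0.116 per h (37.6 and 81.0), CLN1 0.905 and 0.137 per h (53.2 and 86.3) and CLN2 0.106 and -0.0870 per h (41.7 and 37.4). CLN1 and CLN3 therefore ranked lower in the elutriated series although their scores there were higher. BCK2, an activator of Start that works beside CLN3, scored 10.9 and -0.0972 per h (88.8 and 26.6). SIC1, the inhibitor of Clb-Cdc28, scored 8.61 and -0.00400 per h (94.1 and 62.0), and WHI3, which binds the CLN3 mRNA, 16.8 and 0.0575 per h.

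Among the other regulators, CKS1, the small subunit that docks on Cdc28, had one of the lowest elutriated scores with -0.554 against -0.0444 per h (2.44 and 51.2). CAK1, the kinase that activates Cdc28, ranked at 36.1 and 78.0, NRM1, a repressor of MBF, at 7.80 and 42.4, and CDH1, an activator of the anaphase-promoting complex (APC), at 8.74 and 42.7. CDC5, the Polo kinase, was shifted up, at 1.61 and -0.129 per h (87.9 and 17.96). MBP1, the DNA-binding part of MBF, was at 78.5 and 47.3, and SWI6, its partner shared with SBF, at 25.4 and 9.27. FAR1, STB1 and CDC20, a Cln-Cdc28 inhibitor, a partner of SWI6 and an APC activator, were shifted by -16.6, -15.1 and -15.6 points. SWE1, the kinase that holds back Clb-Cdc28, and CLB4, a B-type cyclin, were shifted by 1.95 and 11.7 points.

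Several regulators could not be compared. CLB1, CLB2, CDC6, WHI5, SWI5 and CLB6 were under 10 reads. CLB3, CLB5, SWI4 and CDC14 had no score in elutriated WT cells. CLB2, the main mitotic cyclin, had 5 reads and scores of 1.30 and 0.169 per h, and CLB1 had 8 reads with 1.19 and -0.138 per h. The rest of the mitotic CLB2 cluster stood at median percentiles of 61.8 in elutriated and 72.8 in unelutriated cells, with MYO1, the myosin of the bud neck, shifted up by 59.0 points and ALK1, a haspin-like kinase, down by -69.4.

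Genes switched on as daughters separate (M/G1 and daughter-specific genes) ranked higher in elutriated cells for 10 of 13 members, against 48.6% of all genes. Their median percentiles were 81.6 and 62.0. EGT2, a cell separation gene, scored 19.98 and 0.307 per h and was at the top of both series. AMN1, which ends mitotic exit signalling in daughters, scored 27.2 and -0.0411 per h, and CTS1, the chitinase that frees the daughter, 1.37 and -0.0340 per h. The core histones, made in S phase, had 5 of 7 members higher and 1 shifted up (48.6% and 10.8% of all genes). At this list size 1 shifted up lies near that share. HTB2 and HHF1, coding for H2B and H4, were at 12.6 and -0.0870 and at 8.92 and -0.0439 per h. HHF2, HHT2 and HTA1, coding for H4, H3 and H2A, were shifted by 26.7, 26.2 and 5.37 points. HHT1 and HTB1, coding for H3 and H2B, were lower in rank, with shifts of -46.3 and -11.2 points. Copies of a histone gene have near-identical coding sequences, and no label says how reads that match several genes were counted. HTA2, the other H2A gene, had no score in unelutriated cells.

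Purine and pyrimidine synthesis had 14 of 20 members lower and 6 higher in elutriated WT cells (50.6% and 48.6% of all genes). Their median percentiles were 37.3 and 44.4. In the adenine pathway 7 of 8 were lower. ADE3, which supplies one-carbon units, ranked at 23.4 and 83.4, ADE4, the first committed enzyme, at 38.0 and 81.0, and ADE1 at 11.7 and 56.8. ADE16, an enzyme of the last steps, was the 1 that was higher, with 7.78 and -0.133 per h, while its isozyme ADE17 was shifted by -19.5 points.

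The most uniform group was the Ty retrotransposons, virus-like elements that copy themselves through RNA and encode the structural protein Gag and the Gag-Pol polyprotein. All 83 Ty genes in the comparison (60 of Ty1, 20 of Ty2, 2 of Ty3 and 1 of Ty4) ranked lower in elutriated WT cells, against 50.6% of all genes. The median shift was -49.5 points, from -82.4 to -11.95, with 41 members (49.4%) shifted down by 50 points or more and 0 up, against 9.4% down among all genes. The list was added after the values had been seen. The median score over all Ty genes was 0.0753 per h in elutriated and 0.0714 per h in unelutriated cells, a similar pair of values in which the families went opposite ways. The medians of all 4106 genes were 0.223 and -0.0440 per h, so the median Ty gene lay below the median of all genes in the elutriated series and above it in the unelutriated one. Their reads ran from 11 to 885.

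Ty1 and Ty2 differed in how far they were shifted. Of the 60 Ty1 genes 24 were shifted down by 50 points or more, with a median shift of -46.7, and of the 20 Ty2 genes 17, with a median of -60.5. Median scores were 0.133 and 0.0582 per h for Ty1 and -0.0106 and 0.153 per h for Ty2 in elutriated and unelutriated cells. The Ty2 Gag-Pol gene YFL002W-A had the lowest shift of the list, with -0.0624 and 0.194 per h and percentiles of 6.34 and 88.8, and the Ty1 Gag-Pol gene YJR029W, with 885 reads, scored 0.0410 and 0.0756 per h. Copies within a family are nearly identical and the gag frame lies inside the gag-pol gene, so reads are shared between these genes and the 83 are not separate measurements. When only genes with at least 100 reads were ranked, 19.5% of the 41 Ty genes left were higher in elutriated cells.

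Genes at the top of both series included members of the ribosomal protein, translation factor and TCA cycle lists. Of 124 cytosolic ribosomal protein genes 21 had a percentile of at least 80 in both series and 3 of at most 20 in both (5.63% and 5.72% of all genes), and the list median was 74.0 in elutriated and 67.6 in unelutriated cells. RPL2B scored 78.8 and 0.508 per h, above the 97th percentile in each series. Many ribosomal proteins have a nearly identical second gene, which the way reads were counted could affect. Of 35 translation factors 6 were high in both. Among them were EFT2, elongation factor 2, with 67.6 and 0.394 per h, and DED1, a helicase of initiation, with 7.78 and 0.440 per h at 10 reads. Of 17 TCA cycle genes 5 were high in both, among them FUM1, fumarase, with 51.0 and 0.218 per h and LSC1, a subunit of succinyl-CoA ligase, with 80.8 and 0.226 per h.

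By the rule for single genes, the 8 genes highest in both series included RPL2B, YDR154C, COX9, PDH1, PGI1, MLO50 and SET3. COX9, a subunit of cytochrome c oxidase, scored 68.4 and 0.405 per h, PDH1, a methylcitrate dehydratase-like protein of the mitochondrion, 58.2 and 0.494 per h, and PGI1, the glycolytic isomerase, 66.6 and 0.581 per h. ACS1, the acetyl-CoA synthetase needed on ethanol, was also high in both with 16.3 and 0.666 per h. The 8 lowest in both were APP1, VTI1, YPL229W, YPR063C, KAR9, JNM1, MRX3 and YGL039W. APP1, a phosphatidate phosphatase at actin patches, scored -0.400 and -0.394 per h, and VTI1, a SNARE of Golgi and vacuole traffic, -0.409 and -0.243 per h. KAR9 and JNM1, which position the spindle, scored -0.269 and -0.210 and -0.293 and -0.207 per h.

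The single genes with the highest shifts were PMR1, YME1, TMS1, RQC1, NOC2, DIE2, HEM14, SLM1, KIN4 and HMLALPHA2, with shifts from 93.2 to 97.1 points. PMR1, the calcium and manganese pump of the Golgi, scored 53.1 per h in elutriated and -0.254 per h in unelutriated cells (98.0 and 0.976). YME1, a protease of the inner mitochondrial membrane, scored 64.9 and -0.243 per h. KIN4, a kinase of the spindle position checkpoint, scored 17.8 and -0.172 per h at 11 reads, and HEM14, of heme synthesis, 8.57 and -0.222 per h at 10 reads. Both counts lie near the minimum and come from Cdc28-as experiment 1, not from the WT libraries. HMLALPHA2 is a silent mating-type gene that shares its sequence with the expressed locus. PMR1, HEM14 and SLM1 overlap another annotated gene, as do 3.74% of all genes compared. Whether reads were counted by strand is not given.

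The lowest shifts, from -96.6 to -92.7 points, were those of POG1, SSN2, NPR1, KAR1, PCF11, NAM7, PPZ2, GLN1, CDC4 and DSC2. POG1, which promotes recovery from pheromone arrest, scored -0.873 per h in elutriated and 0.362 per h in unelutriated cells. NPR1, a kinase that controls amino acid permeases, scored -0.358 and 0.776 per h, and GLN1, glutamine synthetase, -0.208 and 0.627 per h at 92.5 reads. CDC4, the F-box protein that marks Sic1 for destruction, scored -0.366 and 0.188 per h, and KAR1, needed to duplicate the spindle pole body, -0.398 and 0.329 per h. NAM7, the helicase of nonsense-mediated decay, and PCF11, a cleavage factor of mRNA ends, were at -0.274 and 0.361 and at -0.239 and 0.464 per h. SSN2, PCF11, POG1 and KAR1 had low read counts, of 11, 15.5, 16.5 and 17.

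Neither WT series ranked genes much like the Cdc28-as series, which were scored per femtolitre of cell size. Spearman's rho of elutriated WT with Cdc28-as experiments 1, 2 and 3 and the time course was 0.0621, 0.00847, -0.0370 and -0.0113, and that of unelutriated WT was -0.0204, -0.0440, -0.0378 and 0.167. Among Cdc28-as experiments 1 to 3, rho was 0.405 to 0.438. The Cdc28-as time course had only 0.247, 0.0324 and 0.109 with experiments 1, 2 and 3. With experiments 2 and 3 this was less than the 0.167 it had with unelutriated WT. The G1/S list had median percentiles of 94.1, 89.0 and 84.1 in experiments 1 to 3 and 77.9 in the time course, against 40.4 and 60 in elutriated and unelutriated WT. The Ty genes had 22.8, 61.0, 61.0 and 93.7 in the same order, against 19.9 and 76.2.

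**Figure D5:**
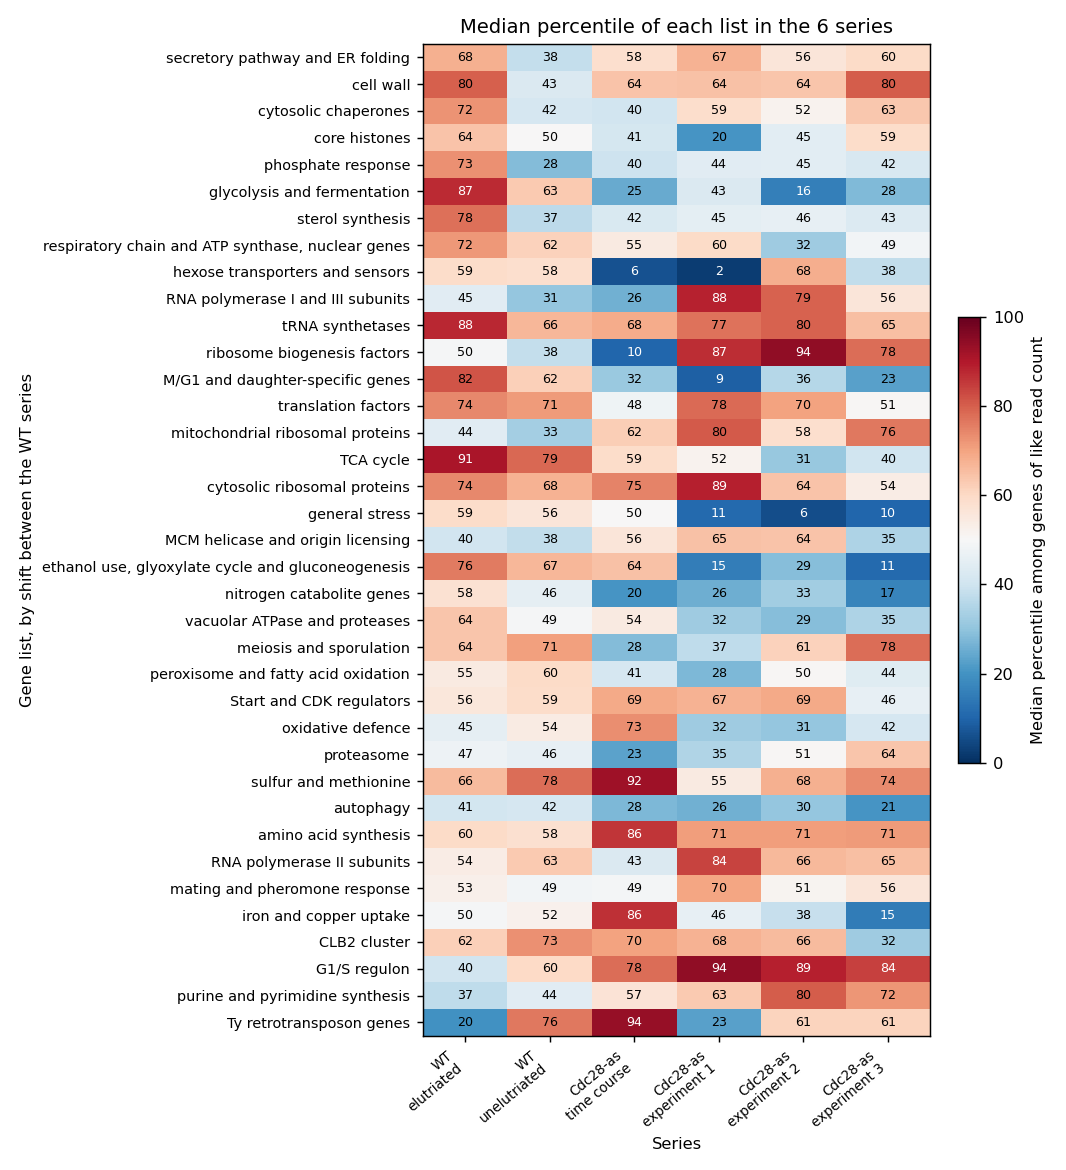
Median percentile of each list, among genes of like read count, in the WT series and the 4 Cdc28-as series; rows follow the order of shift between the WT series, red is high and blue low. In the first pair of columns the secretory list at the top has 67.8 and 38.0 and the Ty genes at the bottom 19.9 and 76.2.

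Base composition and gene length went little with the shift. Over 4066 genes with R64 coordinates, rho of the shift was -0.106 with GC content and -0.0169 with length, and the unelutriated percentile itself had 0.161 with GC content against 0.0254 for the elutriated. Of the genes shifted down 12.3% overlapped another gene, against 3.74% of all genes compared. Of the 74 overlapping genes that are not Ty genes 7 were shifted down and 11 up, where 9.4% and 10.8% of all genes were. The 7 shifted down lie near that share. The PAC element GATGAG was in 26.2% of promoters of genes shifted down and 20.2% of all, and 47 of the 83 Ty windows hold it. The heat shock element core GAANNTTC was in 12.9% of promoters of genes shifted up and 12% of all, and the stress element AGGGG in 17.2% and 22.4%.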

How the data were processed

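RNA-seq of WT yeast in 2 series of 6 libraries each was used as 1 table of scaling scores per gene. The submitters' processing notes name Bowtie2 and build R64. How reads were counted, by strand or not and with several matches or not, and whether the Candida reads served for scaling, are points not given in the sources used. In their table the authors deposited a score per gene and series, per hour for WT cells, whose formula was read from the values, and a signal, the median read count in experiment 1 of the Cdc28-as cells. No counts per library were used, so depth per library is unknown and no counting interval was given.

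Genes scored in both WT series with at least 10 reads were ranked within 20 read-count bins (Python 3.11.15, pandas 2.3.3, numpy 2.4.6, scipy 1.17.1), which also removes each column's median. Shifts of at least 50 points, percentiles of at least 80 in both and of at most 20 in both were counted. With 1 score per gene and series no test was possible. The ranking steps were tested on simulated data. Identifiers were matched to RefSeq R64 for symbols, coordinates (1-based) and promoter windows, for 4066 of the 4106 genes.

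The genes compared and the lists were chosen with earlier results of these data known, and the Ty list, the subgroups by role and the Pho4, heat shock and unfolded protein response motifs were added after the values had been seen. Genes named are all members of the Start regulators and core histones, the 10 highest and 10 lowest shifts, the 8 highest and 8 lowest in both series, and in each list of at least 5 members the 2 highest and 2 lowest shifts and the 2 with the most reads. Any further gene was picked with its values in view, and a few genes that the rule names are not reported here. Alternatives covered the read matching, the read minimum, genes that hold exactly the score of detection in a single library, identifiers, scaling by spread, GC content, overlaps and shared scores. The list of mitochondrial genome genes had no member scored in both series.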

Additional observations from a re-analysis of the deposited data

How the results depend on the processing

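The 4 counts of genes moved with the read minimum, which changes how many genes are compared. With a minimum of 30 reads, which leaves 2271 genes, 238 were shifted up, 218 down, 124 were high in both and 125 low in both. With 100 reads, which leaves 636 genes, these were 68, 66, 42 and 31, and with no minimum (6122 genes) 666, 587, 314 and 367. As shares of the genes compared, the genes shifted up were 10.5% at 30 reads and 10.7% at 100 reads. Rank correlation ran from 0.134 to 0.198 over all settings. The share of members higher in elutriated cells ran from 70.3% to 87.5% for the secretory list, 65.6% to 81.2% for the cell wall, 62.5% to 88.9% for chaperones, 50% to 84.6% for sterol synthesis, 22.5% to 40% for the G1/S list and 0% to 19.5% for Ty genes. For ribosomal proteins it ran from 48.4% at 100 reads to 90.3% with scores divided by the median absolute deviation. For ribosome biogenesis factors it ran from 37.5% to 63.0% and for RNA polymerase II subunits from 28.6% to 66.7%. The direction of these 3 lists therefore depends on the setting. Other lists crossed 50% too, among them the CLB2 cluster (40% to 55%), the Start regulators (45% to 55.6%), ethanol use and gluconeogenesis (42.9% to 79.2%) and the proteasome (40% to 74.3%). Settings for GC content, overlaps and shared scores were chosen after seeing the data. No paired analysis was possible because the numbers in the titles are time points and each series has 1 score per gene; for the same reason no library could be left out.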

Other observations

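Lists of growth genes other than ribosomal proteins did not share 1 direction. The 14 tRNA synthetases had median percentiles of 87.6 in elutriated and 66.4 in unelutriated WT cells, and the 18 subunits of RNA polymerases I and III a median shift of 14.4 points. The 9 subunits of RNA polymerase II stood at 53.7 and 62.9, with 3 of 9 higher in elutriated cells. The 73 ribosome biogenesis factors had lower percentiles in both, at 49.5 and 38.0, with a median shift of 10.7 points, and 68 of them hold the PAC element GATGAG, which lies in 20.2% of all promoters. The 49 general stress genes had 59.2 and 56.1. In the list of Msn2 and Msn4 targets, the 30 genes with the stress element had a median shift of 2.0 points and the 19 without it 13.2.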
